A study of Mus musculus with 2 samples.

Results

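Mir132, Mir212, Mir21a and Mir202 are 4 miRNA genes that have been linked to the hormone response of steroid-producing cells. They were taken by gene symbol from the 2202 miRNA genes counted in adrenal glands of newborn mice, and all 4 were present in both tables. The study held 1 group of 2 libraries and no treated or control group. Both libraries came from males of the strain B6CASTF1/J, the first-generation hybrid of C57BL/6J and CAST/EiJ mice, at an age of 4 days, with no agent or engineered allele named. Replicate 1 was male 3 and replicate 2 was male 4. The labels gave both the same donor identifier, so that the number of the male is what separates them.

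Adrenocorticotropic hormone (ACTH) from the pituitary acts on the adrenal cortex through cyclic AMP and raises the delivery of cholesterol to the mitochondria, where steroid synthesis begins. MicroRNAs are short RNAs that pair through their seed, bases 2 to 8, with messenger RNAs and lower their output. MiR-132 and miR-212 come from 1 locus that the cyclic AMP-responsive factor CREB can activate, and ACTH is known to raise them in the adrenal of adult rodents. MiR-21 is made in most tissues and is known for repressing Pdcd4, an inhibitor of translation. In adrenocortical cells it has been linked to the response to angiotensin II, the main stimulus of aldosterone release. MiR-202 is best known from the gonads, which share their embryonic origin with the adrenal cortex.

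The sequences of the mature forms show which of the 4 genes can share targets. They are printed 5′ to 3′ from RefSeq (GRCm38.p6), with the seed in capitals.

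miR-132-3p: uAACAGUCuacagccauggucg
miR-212-3p: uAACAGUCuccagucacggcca
miR-21a-5p: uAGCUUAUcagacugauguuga
miR-202-5p: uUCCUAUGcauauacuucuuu
miR-202-3p: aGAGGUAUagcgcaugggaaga

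MiR-132-3p and miR-212-3p have the same seed and are identical at 17 of 22 bases when compared from base 1. The differences, counted from the 5′ end with the base of miR-132-3p first, were A10C, C14U, U17C, U20C and G22A. None of them lies in the seed. The other mature forms of the 4 genes (the 5p arms of Mir132 and Mir212 and the 3p arm of Mir21a) have seeds of their own, so the 8 mature forms carry 7 seeds. A count in the tables belongs to a hairpin gene, and reads of its 2 arms were not told apart.

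The hairpins of Mir212 and Mir132 show how the shared seed sits in 2 different precursors. Both mature arms are in capitals.

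Mir212 hairpin: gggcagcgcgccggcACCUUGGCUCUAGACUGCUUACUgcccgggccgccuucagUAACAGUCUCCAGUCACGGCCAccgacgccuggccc
Mir132 hairpin: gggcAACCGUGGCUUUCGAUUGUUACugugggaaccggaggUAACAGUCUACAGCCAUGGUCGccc

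On mouse build mm10, Mir212 (gene ENSMUSG00000065590.1) lies on the plus strand of chromosome 11, from 75173388 to 75173478. Mir132 (ENSMUSG00000065537.2) follows at 75173682 to 75173747, with 203 bases between the hairpins. Both lie in an intron of the noncoding gene 1700016P03Rik, on its strand. Mir21a (ENSMUSG00000065455.1) lies on the minus strand of the same chromosome, from 86584067 to 86584158, within an annotated untranslated exon part of 1 transcript of the protein-coding gene Vmp1. Vmp1 encodes a membrane protein needed for autophagy. Mir202 (ENSMUSG00000065502.1) lies on the minus strand of chromosome 7, from 139957689 to 139957760, in an exon of the noncoding gene Gm2044. It also lies in an intron of Gm16201, which is annotated on the other strand. The hairpin annotated as mmu-mir-7686 lies 66 bases downstream of Mir202 in the same exon and had 4 counts in replicate 1 and 2 in replicate 2.

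**Figure D1:**
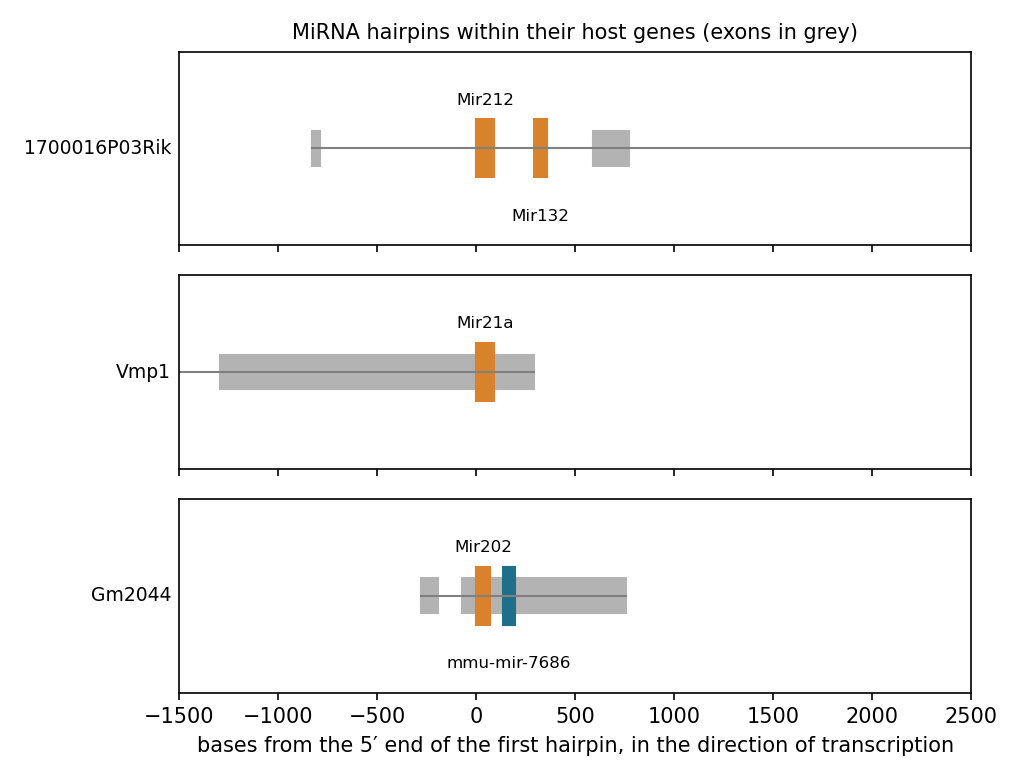
Positions of the hairpins in their host genes. The x axis gives bases from the 5′ end of the first hairpin in the direction of transcription, grey boxes are exons of 1 annotated transcript of each host gene, orange boxes are the 4 miRNA genes and the blue box is mmu-mir-7686; 203 bases separate Mir212 from Mir132.

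The sequences of the 4 genes were distinct from those of other miRNA genes. The longest stretch shared with any other of the 2202 annotated miRNA transcripts was 15 bases for Mir21a (with Mir21c), 12 for Mir202, 12 for Mir212 and 11 for Mir132. Among 141767 annotated transcripts, the mature forms of Mir21a were found outside their own gene only in Vmp1 and those of Mir202 only in Gm2044, both at the hairpin itself. Those of Mir132 and Mir212 were found in none, since introns are not part of transcripts. The rest of the genome was not searched.

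By mean level the 4 genes ran from rank 10 for Mir21a to rank 271 for Mir212, with 340 genes detected at 10 or more counts in both libraries. Levels are given as counts per 1000000 sense-strand miRNA counts of a library (CPM), with the standard deviation (SD) over both libraries. A read in this assay covers a whole mature miRNA, so counts were not divided by gene length. Mir21a was among the most abundant miRNA genes by these counts, Mir132 was at a middle level, and Mir202 and Mir212 were low. Reads that fit more than 1 locus were set aside, 27.0% of all reads in replicate 1 and 25.7% in replicate 2. Ranks and levels therefore leave them out.

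Counts of Mir21a were 67389 in replicate 1 and 66749 in replicate 2, which gave levels of 17010 CPM (95% exact interval 16883 to 17138) and 39571 CPM (39277 to 39866), with a mean of 28291 ± 15953 CPM (SD, n = 2). It was the gene of rank 18 in replicate 1 and of rank 6 in replicate 2. The nearly equal counts thus stood for a level more than doubled in the shallower library.

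Mir132 was counted 1719 times in replicate 1 and 1627 times in replicate 2. Its level was 434 CPM (414 to 455) and 965 CPM (918 to 1013), with a mean of 699 ± 375 CPM (SD, n = 2), and its rank was 135 and 89. Here too replicate 2 was high and replicate 1 low.

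Mir202 had 214 counts in replicate 1 and 128 in replicate 2, which were 54.0 CPM (47.0 to 61.8) and 75.9 CPM (63.3 to 90.2). The mean was 65.0 ± 15.5 CPM (SD, n = 2). The counting intervals of the 2 libraries did not overlap, although the bounds lay close together.

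Mir212 was the rarest, with 111 reads in replicate 1 and 55 in replicate 2, or 28.0 CPM (23.0 to 33.7) and 32.6 CPM (24.6 to 42.4). The mean was 30.3 ± 3.24 CPM (SD, n = 2). The libraries were alike within counting error, and the gene lay at rank 271 in replicate 1 and 263 in replicate 2.

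The order of the levels was Mir21a, Mir132, Mir202 and Mir212 in both libraries. No 2 neighbours in this order overlapped across libraries, since the lower value of each gene lay above the higher value of the next. The order was the same when levels were divided by hairpin length, at 30751, 1059, 90.2 and 33.3 CPM per 100 bases.

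**Figure D2:**
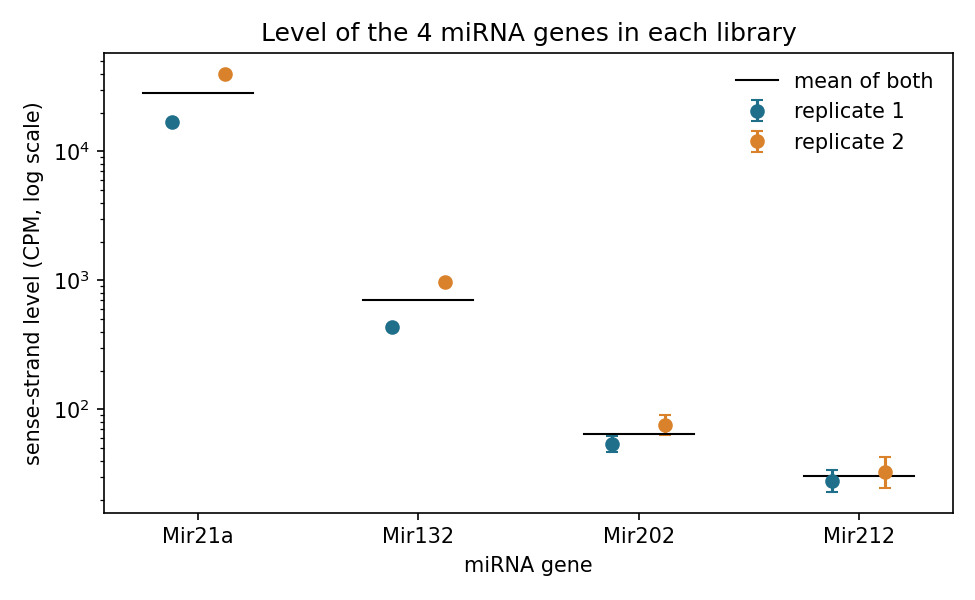
Level of each miRNA gene in replicate 1 (blue) and replicate 2 (orange), in CPM on a log axis. Error bars are exact 95% intervals for counting error and black lines are means of both libraries; replicate 2 lay above replicate 1 for all 4 genes, by the widest margin for Mir21a (17010 and 39571 CPM) and Mir132 (434 and 965 CPM).

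The libraries of the 2 males differed in Mir21a and Mir132, and less in Mir202 and Mir212. The level of Mir21a in replicate 2 was 2.33 times that in replicate 1 (95% exact interval 2.30 to 2.35), and that of Mir132 was 2.22 times as high (2.08 to 2.38). Mir202 was 1.40-fold higher (1.12 to 1.76), and Mir212 had a ratio of 1.16 with an interval from 0.827 to 1.62. Each gene was tested between the libraries with a two-sided exact binomial test of its counts against the library totals, over the 404 genes that reached 10 counts in at least 1 library. A call needed a Benjamini-Hochberg adjusted p under 0.05 and a log2 ratio of replicate 2 over replicate 1, on CPM + 0.5, above 1 or below -1. This test compares 2 libraries and covers counting error only, so a call says nothing of a condition.

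By this rule Mir21a and Mir132 were called higher, 2 of the 4 genes, and none was called lower. Of all tested genes 9.65% were called higher and 8.66% lower in replicate 2. The log2 ratio was 1.22 for Mir21a, whose p was too small for the software to store, and 1.15 for Mir132 (adjusted p = 2.67e-113, exact test). Mir202 had a log2 ratio of 0.49 (adjusted p = 0.00577, exact test), which did not reach the size needed for a call. Mir212 had 0.22 (adjusted p = 0.438, exact test).

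Differences of the size seen for Mir21a and Mir132 were not rare among the tested genes. A log2 ratio at least that of Mir21a was found for 35 of 404 genes, itself included, and one at least that of Mir132 for 38. The median log2 ratio of all tested genes was -0.05 and the median size was 0.50. Mir202 and Mir212 lay below that median size, at 0.49 and 0.22. Among 92 genes with a mean of at least 1000 CPM, 8 had a log2 ratio at least that of Mir21a and the median size was 0.44.

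The call of both genes depended on the denominator. With all reads of the tables as the denominator, unaligned reads and reads outside miRNA genes included, the log2 ratio was 0.83 for Mir21a and 0.76 for Mir132, and neither was called. On that scale 19 genes were higher and 63 lower, against 39 and 35 with miRNA counts as the denominator, and the median of all tested genes was -0.41. TMM scaling, a trimmed mean of the log ratios between libraries, put this median at -0.16, with 1.11 for Mir21a and 1.04 for Mir132.

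**Figure D3:**
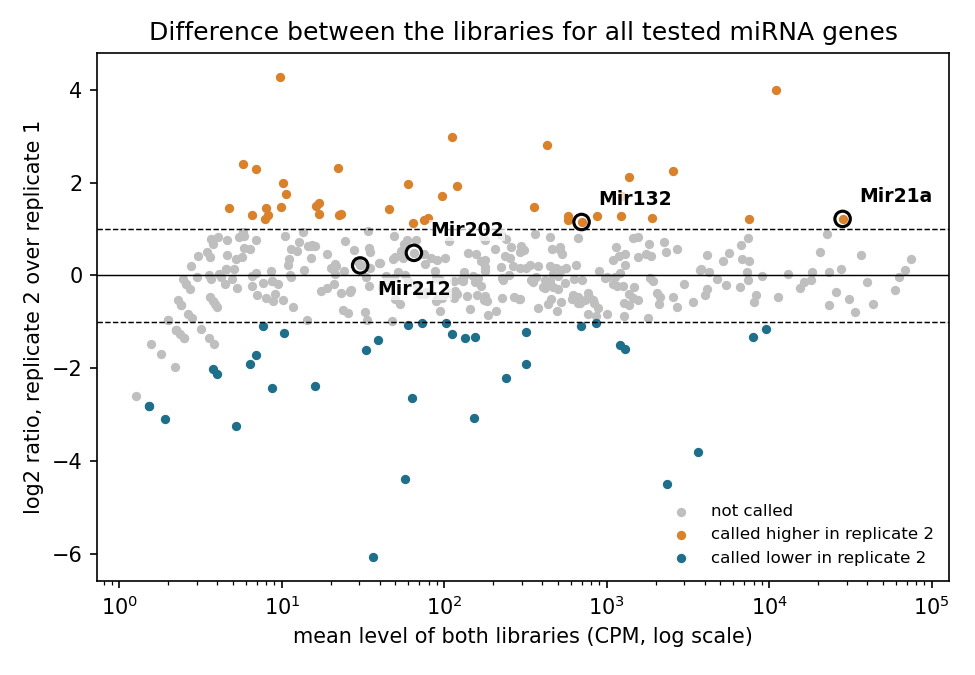
Log2 ratio of replicate 2 over replicate 1 against mean level (CPM, log axis) for the 404 tested miRNA genes. Orange and blue points were called higher and lower in replicate 2, grey points were not called, dashed lines mark log2 ratios of 1 and -1, and circles mark the 4 genes; Mir21a and Mir132 lie just above the upper line, Mir202 and Mir212 below it.

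Ratios between genes within 1 library need no scaling. Their change between the libraries follows from the level ratios given above, so it is no separate evidence. The pairs were added after seeing the data, and their intervals cover counting error only. There were 39.2 counts of Mir21a for each count of Mir132 in replicate 1 and 41.0 in replicate 2. The second ratio was 1.05 times the first, with an exact 95% interval from 0.977 to 1.12 that includes 1. Mir202 over Mir212 was 1.93 in replicate 1 and 2.33 in replicate 2, 1.21 times as high (0.804 to 1.82). The other 4 pairs, each setting Mir21a or Mir132 against Mir202 or Mir212, had intervals above 1. Mir21a over Mir212 doubled from 607 to 1214 (2.00 times, 1.43 to 2.81), and Mir21a over Mir202 went from 315 to 521 (1.66 times, 1.32 to 2.08). Mir132 over Mir202 went from 8.03 to 12.7 (1.58 times, 1.25 to 2.01).

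Mir132 and Mir212 lie 203 bases apart in 1 intron, yet their counts differed greatly and not by a fixed factor. Mir132 had 15.5 counts for each count of Mir212 in replicate 1 and 29.6 in replicate 2, 1.91 times as many (1.36 to 2.71). Of the counts of both genes, Mir132 held 93.9% of 1830 in replicate 1 and 96.7% of 1682 in replicate 2, with a mean of 95.3% ± 1.98 (SD, n = 2). Mir212 held the remaining 6.07% (5.02 to 7.26%) and 3.27% (2.47 to 4.24%), and the shares differed between the libraries (two-sided Fisher's exact test, p = 8.97e-05). This test covers counting error only, not the spread between animals, and rests on 111 and 55 counts of Mir212. The 2 hairpins summed to 462 CPM in replicate 1 and 997 CPM in replicate 2, both arms included.

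**Figure D4:**
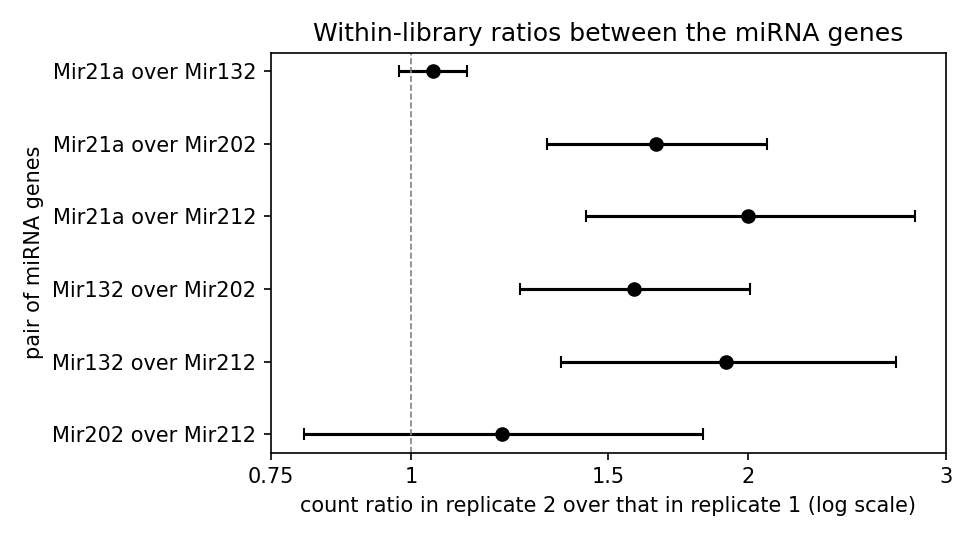
Change of the count ratio between 2 genes from replicate 1 to replicate 2, for the 6 pairs, on a log axis. Points are the ratio in replicate 2 over that in replicate 1, bars are exact 95% intervals and the dashed line marks no change; the intervals of Mir21a over Mir132 (0.977 to 1.12) and Mir202 over Mir212 (0.804 to 1.82) include 1.

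Other miRNA genes with the closest pair of levels were sought for each gene by the Euclidean distance in log2(CPM + 0.5) over both libraries. With 2 libraries this likeness rests on 2 values per gene. Nearest to Mir21a were Mir10b of a Hox cluster, at 15904 CPM in replicate 1 and 29522 CPM in replicate 2, and Mirlet7d, at 16940 and 23954 CPM. Nearest to Mir132 were Mir146, which makes miR-146a of the innate immune response and is also a leukocyte marker used here, at 486 and 851 CPM, and Mir483, which lies in the imprinted gene Igf2, at 352 and 808 CPM. Of these 4, Mir483 was also called higher in replicate 2 (log2 ratio 1.20). Mir202 was closest to Mir760, at 49.7 and 84.8 CPM, and Mir135b, at 62.9 and 86.6 CPM. Mir212 was closest to Mir184, at 28.3 and 33.2 CPM, and Mir5121, at 25.7 and 32.0 CPM.

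Few other genes carried the seeds of the 4. The seed of miR-21a-5p occurs also in miR-21c, which is identical to it at 16 of 21 bases. Mir21c had 0 counts in both libraries, which allows up to 0.757 CPM in replicate 1 and 1.78 CPM in replicate 2. The seed of miR-202-3p occurs also in let-7j, printed here because its gene was counted at a like level.

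let-7j: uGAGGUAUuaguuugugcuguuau
let-7g-5p: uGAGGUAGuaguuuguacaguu

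The gene of let-7j, Mir7j in the annotation, had 319 counts in replicate 1 and 102 in replicate 2, against 214 and 128 of Mir202. The usual let-7 seed, shown by let-7g-5p, differs from that of miR-202-3p only at its last base (U8G, from the 5′ end, miR-202-3p first). Over the whole length, seed included, miR-202-3p and let-7g-5p were identical at 7 of 22 bases, most of them in the seed. The 13 genes with the usual let-7 seed held 18.1% of miRNA counts in replicate 1 and 19.9% in replicate 2. That was 3344 and 2623 times the count of Mir202, in the same order. Several let-7 forms are made from more than 1 locus, and reads that fit more than 1 locus were set aside, so these values leave such reads out.

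A list of 17 miRNA genes linked to ACTH or to steroid-producing cells placed the 4 genes among others of that kind. Each of the 17 reached 10 counts in both libraries. They held 4.16% ± 1.86 of miRNA counts (SD, n = 2), of which Mir21a, Mir132, Mir202 and Mir212 made up 61.6% in replicate 1 and 74.2% in replicate 2. Without Mir21a the list summed to 11454 CPM in replicate 1 and 15229 CPM in replicate 2.

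Of the 17 genes, 3 were called higher in replicate 2, 1 was called lower and 13 were not called, where 9.65% of all tested genes were called higher and 8.66% lower. The list median log2 ratio was 0.38, against -0.05 over all tested genes, and 12 of 17 lay above 0. With all reads as the denominator the list median was -0.01 with 8 of 17 above 0, and 0 of its genes were then higher and 2 lower, against 19 and 63 of the 404 tested genes. Beside Mir21a and Mir132, the third gene called higher was Mir455, with 716 CPM in replicate 1 and 1734 CPM in replicate 2 (log2 ratio 1.28). Mir455 and Mir125a have been linked to the repression of Scarb1, the receptor that takes up cholesterol from high-density lipoprotein. Mir125a had 4721 and 6588 CPM, a log2 ratio of 0.48 that was not called.

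Mir182 was the gene called lower, with 447 CPM in replicate 1 and 191 CPM in replicate 2 (log2 ratio -1.22). Mir183 and Mir96 are made from the same cluster as Mir182. Mir183 had 151 and 149 CPM, and Mir96 had 10.1 and 14.8 CPM, so the cluster did not differ as 1 unit. In adult rodents ACTH is known to raise Mir132, Mir212, Mir182, Mir183 and Mir96 and to lower Mir214, Mir503 and Mir27a. Of the first 5, 1 was called higher and 1 lower between these libraries, and of the last 3 none was called. Of all 404 tested genes 9.65% were called higher and 8.66% lower. The libraries hold no contrast of ACTH, so a response to it was not tested. Mir214 had 2181 and 3251 CPM, Mir503 had 865 and 927 CPM, and Mir27a had 867 and 598 CPM.

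The other members of the list were not called. Mir33, which represses the cholesterol exporter Abca1, had 18.9 and 21.3 CPM. Mir24-1 had 42.7 and 56.3 CPM and Mir24-2 had 207 and 144 CPM. These 2 loci share a mature form, and reads that fit both were set aside in the deposited tables, so their levels are uncertain. Mir370 had 623 and 366 CPM and Mir377 had 87.8 and 114 CPM.

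**Figure D5:**
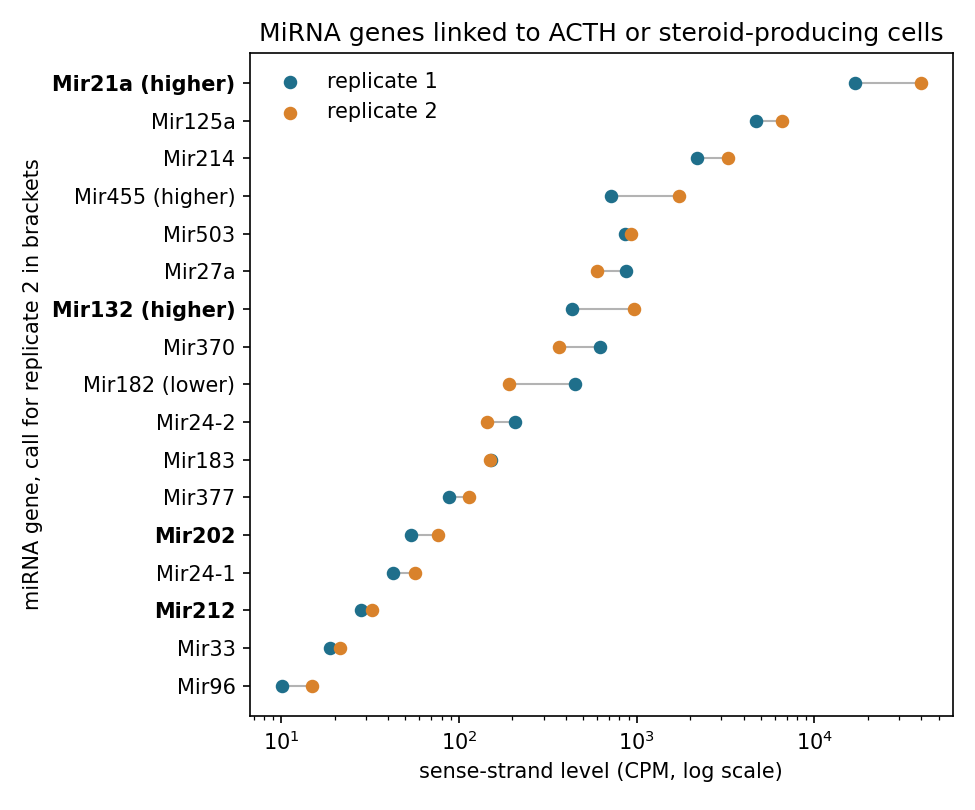
Level of the 17 listed miRNA genes in replicate 1 (blue) and replicate 2 (orange), in CPM on a log axis, ordered by mean level. Bold names are Mir21a, Mir132, Mir202 and Mir212, and brackets give calls for replicate 2; Mir21a, Mir132 and Mir455 were called higher and Mir182 lower.

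Replicate 1 had 3961630 sense-strand miRNA counts, 33.7% of its 11770895 reads, and replicate 2 had 1686822, 25.7% of 6557080. Markers of other cells and tissues differed between the same libraries as Mir21a and Mir132. In CPM of replicate 1 and replicate 2, liver Mir122 stood at 1299 and 20602, with the 1 marker called higher. The 4 erythroid markers summed to 7248 and 596, with Mir451a (6842 and 491) and Mir144 (393 and 84.8) lower. Mir451a made up most of the sum. Mir486 had 12.4 and 19.6 and was not called, and Mir3107 had 1 count in each library and was not tested. The 5 matched leukocyte markers summed to 1343 and 2189, with Mir223 higher (187 and 521). Mir142 (421 and 617), Mir146 (486 and 851), Mir150 (133 and 131) and Mir155 (118 and 69.4) were not called, so the leukocyte markers did not move together. Of 6 striated muscle markers only Mir206 was detected, at 1130 and 2646, and it was higher. The other 5 had at most 6 counts in a library, and Mir133a-2 had 0 in both. Reads that fit more than 1 locus were set aside. Low counts of Mir1a-1, Mir1a-2, Mir133a-1 and Mir133a-2 therefore do not show that their mature forms were absent. The same limit holds for other listed markers with more than 1 locus, Mir7-2 among them. Of 5 epithelial markers, 2 were lower (741 and 279 in sum), and of 4 kidney markers 2 were higher and 1 lower (169 and 378). The higher ones were Mir192 (49.7 and 190) and Mir194-2 (24.0 and 96.0), both on chromosome 19. Mir194-1 was lower, with 39 counts in replicate 1 and 1 in replicate 2, and Mir204 (85.1 and 91.3) was not called.

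Mir126a of endothelium had 65222 and 83391 CPM and was not called, nor were the 2 smooth muscle and stroma markers (42282 and 38444 in sum). All 4 chromaffin and neuroendocrine markers were detected and summed to 36299 and 46670 CPM, with Mir7-2 lower. No marker of cortex cells is among these lists. The part of these differences in the levels of Mir21a and Mir132 was not tested. In whole tissue, fewer cells of a type and less RNA per cell cannot be told apart.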

How the data were processed

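Small RNA of under 30 nucleotides was sequenced from total RNA of whole adrenal glands, 1 library for each of 2 males. The deposited tables held read counts per miRNA gene on mouse build mm10 with annotation release M21, as the deposited file lists name them. Aligner, trimming and read filters: not given in the sources used here. The sense-strand column was used and its 4 summary rows did not enter the library totals. They held reads aligned to more than 1 locus (27.0% of replicate 1 and 25.7% of replicate 2), unaligned reads, reads that could belong to more than 1 gene and reads outside miRNA genes. All identifiers matched GENCODE M21, and all 4 genes matched RefSeq sequences (GRCm38.p6) at the same positions.

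The genes and lists were chosen with earlier results of these data known. Levels were CPM with Clopper-Pearson 95% intervals; a count of 0 allowed 3 counts. The exact binomial test was run on each gene by itself and checked on simulated counts. Those counts held counting error only, so the check does not cover spread between animals. Intervals and tests covered counting error only and not the spread between animals. Reads are not independent molecules, so the intervals may be too narrow even for counting error. Text named the 4 genes, listed genes, genes sharing a seed, host genes and, for each gene, the 2 nearest genes outside the ACTH list that reached 10 counts in both libraries. Alternatives were TMM (edgeR 4.0.16) and DESeq2 1.42.0 scaling, all reads as denominator, the either-strand column, 5 CPM added, other thresholds, no count filter and each library left out. The ratios between pairs of genes, levels per hairpin length and TMM over detected genes were added after seeing the data. A search for motifs upstream of the genes was planned and not run. Marker symbols were matched also through RefSeq synonyms (Mir146a as Mir146, Mir486a as Mir486, Mir486b as Mir3107). Mir142hg, a long noncoding gene, was not in the miRNA tables. Python 3.11.15, numpy 2.4.6, pandas 2.3.3, scipy 1.17.1 and R 4.3.3 were used.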

Additional observations from a re-analysis of the deposited data

Results flagged for a closer look

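Reads on the strand opposite to the 4 genes were not used in the report. Mir21a had 5 such counts in replicate 1, more than the 3 that a count of 0 allows, or 0.00742% of its sense-strand counts. It had 0 in replicate 2, which allows up to 0.00449% there. Mir132, Mir202 and Mir212 had 0 in both libraries.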

How the results depend on the processing

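Of 76 alternatives that kept both libraries, 65 left a result on its side of the threshold or within its spread. Leaving out 1 of 2 libraries cannot move a mean beyond its SD and says nothing about stability. No log2 ratio can be had from 1 library. The rank of Mir21a was 10 by mean level and 18 or 6 from replicate 1 or 2 alone. With all reads as the denominator the mean levels were 7952 CPM for Mir21a, 197 for Mir132, 18.9 for Mir202 and 8.91 for Mir212, lower by construction. The log2 ratio was then 0.83 for Mir21a and 0.76 for Mir132, with neither called, and -0.16 for Mir212, against 0.22. In the either-strand column, whose total is smaller, Mir212 was at 34.6 CPM. Genes called different numbered 132 at a log2 ratio over 0.58 and 251 at any size, against 74. At any size 12 of the 17 listed genes were called, among them Mir202. TMM over detected genes, chosen after seeing the data, gave 1.24 for Mir21a and 1.17 for Mir132. Depth limits Mir212, whose interval allows a ratio from 0.827 to 1.62.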
